A study of Homo sapiens with 4 samples.

Results

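The 9 enzymes described here make serine from glucose and pass its side-chain carbon onto folate: PHGDH, PSAT1 and PSPH of the serine synthesis pathway, SHMT2, MTHFD2, MTHFD1L and ALDH1L2 of the mitochondrial folate pathway, and SHMT1 and MTHFD1 of the cytosolic folate pathway. They were chosen by name, and all 9 were found by symbol among the 20348 genes of the deposited count table. RNA was sequenced from K562, a human line from chronic myeloid leukemia with erythroid features, and from THP-1, a human line from acute monocytic leukemia, each kept for 72 h with DMSO, the solvent, or with 100 nM periplocin, a plant cardiac glycoside. For the 4 libraries, 1 per condition, the labels name no genetic change, and they call the DMSO libraries blank controls. With a single library per condition there was no spread between replicates to test against, so within a line the values are given with intervals from counting alone and without p-values, and each line stands for itself.

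In serine synthesis, PHGDH oxidises a glycolytic intermediate, PSAT1 adds the amino group and PSPH removes the phosphate. Serine hydroxymethyltransferases (SHMT2 in mitochondria, SHMT1 in the cytosol) then split serine into glycine and a one-carbon unit carried by tetrahydrofolate. In mitochondria MTHFD2 oxidises that unit and MTHFD1L releases it as formate, while ALDH1L2 oxidises it to carbon dioxide and yields NADPH. In the cytosol MTHFD1 takes up formate and supplies one-carbon units for purines, thymidylate and methionine. Several of these genes are known targets of ATF4, the transcription factor of the amino acid and endoplasmic reticulum stress response, and of MYC, and proliferating cells, leukemia cells among them, are known to draw on the pathway.

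Promoter sequence was available from RefSeq (GRCh38.p14, 250 bases before to 50 bases after each start) for 6 of the 9 genes, PHGDH, PSAT1, MTHFD2, MTHFD1L, SHMT1 and MTHFD1. PSPH, SHMT2 and ALDH1L2 had no entry. These genes have 9 promoters in the table, 4 of them of MTHFD1L, which overlap in part, so MTHFD1L has more chances to hold a motif. Both strands were searched for 3 motifs. The composite element of ATF4 with C/EBP proteins, TGATGCAA, was found in 3 of the 9 promoters of these genes, all of MTHFD1L, and in 0.866% of all 35116 promoters in the table. The E-box CACGTG, the site of MYC and related factors, was found in 4 of the 9 promoters, of MTHFD1 and MTHFD1L, and in 7.26% of all promoters. The CCAAT box, read as CCAAT or its reverse complement ATTGG and searched only after the windows had been read, was found in 8 of the 9 promoters, at least 1 for each gene, and in 34.6% of all promoters. In MTHFD1L each motif matched 1 site, which was counted in 3 overlapping promoters. By gene the composite element, E-box and CCAAT box were found in 1, 2 and 6 of the 6 genes. The share of all genes was not computed, so the shares of promoters are not a like comparison. No hits of different motifs overlapped in these 6 genes. The 30 bases around the MTHFD1L element (chr6:150866346-150866375, plus strand, element in capitals) are shown because this was the only exact match to TGATGCAA among the 6 genes. Variants of these letters were not searched for, so a gene without a match may still hold a variant of the element.
MTHFD1L composite element: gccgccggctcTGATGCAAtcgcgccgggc
The bases upstream of the start of PSAT1 (chr9:78296875-78297124, plus strand) and of SHMT1 (chr17:18363564-18363800, minus strand) are shown as a gene that fell in K562 and a gene that fell in THP-1. Capitals mark the CCAAT boxes, which begin 113, 83 and 52 bases before the PSAT1 start and 76 and 25 bases before the SHMT1 start. The SHMT1 stretch ends 14 bases before its start, and the bases nearer the start are not printed.
PSAT1 promoter: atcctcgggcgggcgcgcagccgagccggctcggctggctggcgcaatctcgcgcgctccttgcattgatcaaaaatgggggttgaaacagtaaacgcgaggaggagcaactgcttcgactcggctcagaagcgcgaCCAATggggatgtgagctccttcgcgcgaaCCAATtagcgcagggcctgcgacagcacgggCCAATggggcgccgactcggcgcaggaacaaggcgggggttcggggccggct
SHMT1 promoter: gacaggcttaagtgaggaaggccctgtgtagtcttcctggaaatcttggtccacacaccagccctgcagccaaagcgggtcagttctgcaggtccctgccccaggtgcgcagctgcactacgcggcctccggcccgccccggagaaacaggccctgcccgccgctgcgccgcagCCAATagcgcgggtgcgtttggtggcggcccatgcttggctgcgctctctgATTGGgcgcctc
A match is a description of the letters only.

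The libraries held between 16381149 and 20622694 counts. Counts from mitochondrially encoded genes made up 5.62% of the K562 DMSO library and 2.07% of the K562 periplocin library, against 5.24% and 3.92% in THP-1. The labelled lines were checked against marker genes. All 8 erythroid markers, the fetal and embryonic globins HBG1, HBG2 and HBZ among them, had at least 305 counts in each K562 library, and in THP-1 the receptor gene EPOR had at most 143 counts and the other 7 at most 24. All 8 monocytic markers had at least 572 counts in each THP-1 library, while CSF1R and CTSG, the receptor of a monocyte growth factor and a granule protease, had at most 3 counts in K562. The monocytic list as a whole was not absent there, with 6 of 8 markers over 3 counts in K562 DMSO and 5 with periplocin, and LYZ highest at 752 and 1062 counts. Each library carried the markers of its labelled line.

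In K562 with periplocin, 6 of the 9 enzymes fell at least 2-fold (SHMT2, ALDH1L2, PSPH, PSAT1, MTHFD1L and MTHFD2), none rose at least 2-fold, and PHGDH, SHMT1 and MTHFD1 stayed under that limit. In THP-1 it was instead the 2 cytosolic enzymes, MTHFD1 and SHMT1, that fell at least 2-fold, none rose at least 2-fold, and the other 7 stayed under the limit. Over all genes whose mean in the line reached 1 CPM, the count scaled to the library total, 11.5% were at least 2-fold lower and 8.83% at least 2-fold higher in K562. In THP-1 these shares were 10.4% and 8.02%. The median log2 fold change of the enzymes after TMM scaling was -1.29 in K562, beside -0.01 over the 11862 genes tested, and -0.21 in THP-1, beside -0.02 over 12341 genes. All 9 counting intervals excluded 0 in each line, which at these depths says only that the libraries differed.

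**Figure D1:**
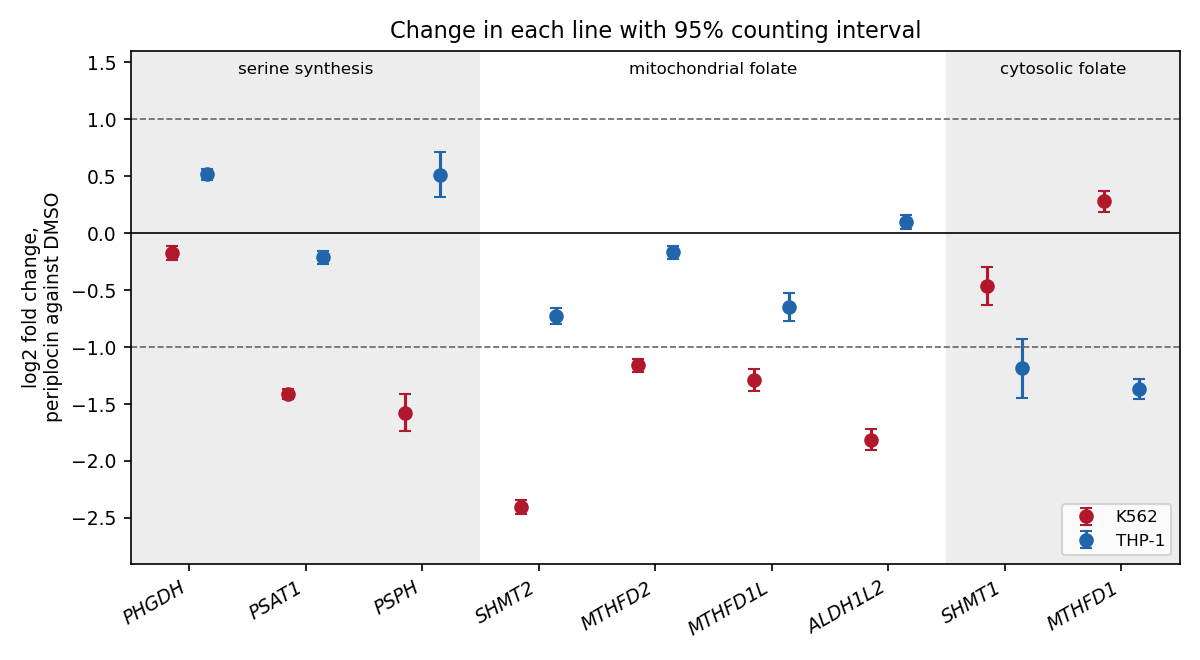
Log2 fold change of periplocin against DMSO (vertical axis) for each of the 9 enzymes (horizontal axis, grouped by pathway), K562 in red and THP-1 in blue. Bars are 95% intervals from counting alone and dashed lines mark a 2-fold change. All 4 mitochondrial enzymes lie below the lower dashed line in K562, from -2.40 to -1.16, and only the 2 cytosolic enzymes do in THP-1, at -1.19 and -1.37.

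The serine synthesis enzymes parted from one another. PHGDH (ENSG00000092621, chromosome 1, 119648411 to 119744226, plus strand), the first enzyme of the pathway, had 4949 counts in K562 DMSO and 4463 with periplocin, and 6920 and 8429 in THP-1. The level in CPM was therefore 302 and 269.5 in K562, against 336 and 476 in THP-1. The log2 fold change was -0.18 ± 0.03 (SE from counts) in K562 and 0.51 ± 0.02 in THP-1, small in K562 and upward in THP-1, and under 2-fold in each.

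PSAT1 (ENSG00000135069, chromosome 9, 78297143 to 78330093, plus strand) had the highest count of the 9 enzymes in K562 DMSO. It fell there from 14802 to 5678 counts, or from 904 to 343 CPM, a log2 fold change of -1.41 ± 0.02. In THP-1 its counts were 5941 and 4375, or 288 and 247 CPM, a log2 fold change of -0.21 ± 0.03 that was under 2-fold. Both THP-1 libraries thus lay below the lower of the K562 libraries in CPM.

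PSPH (ENSG00000146733, chromosome 7, 56011051 to 56051604, minus strand), which carries out the last step, fell in K562 from 1195 to 408 counts, or from 72.9 to 24.6 CPM, a log2 fold change of -1.58 ± 0.08. In THP-1 it had 377 counts with DMSO and 458 with periplocin, or 18.3 and 25.8 CPM, a log2 fold change of 0.51 ± 0.10. K562 DMSO stood apart as the high library, and the other 3 lay between 18.3 and 25.8 CPM. Summed over the 3 genes, serine synthesis went from 1279 to 637 CPM in K562, and in THP-1 from 642 to 748 CPM.

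**Figure D2:**
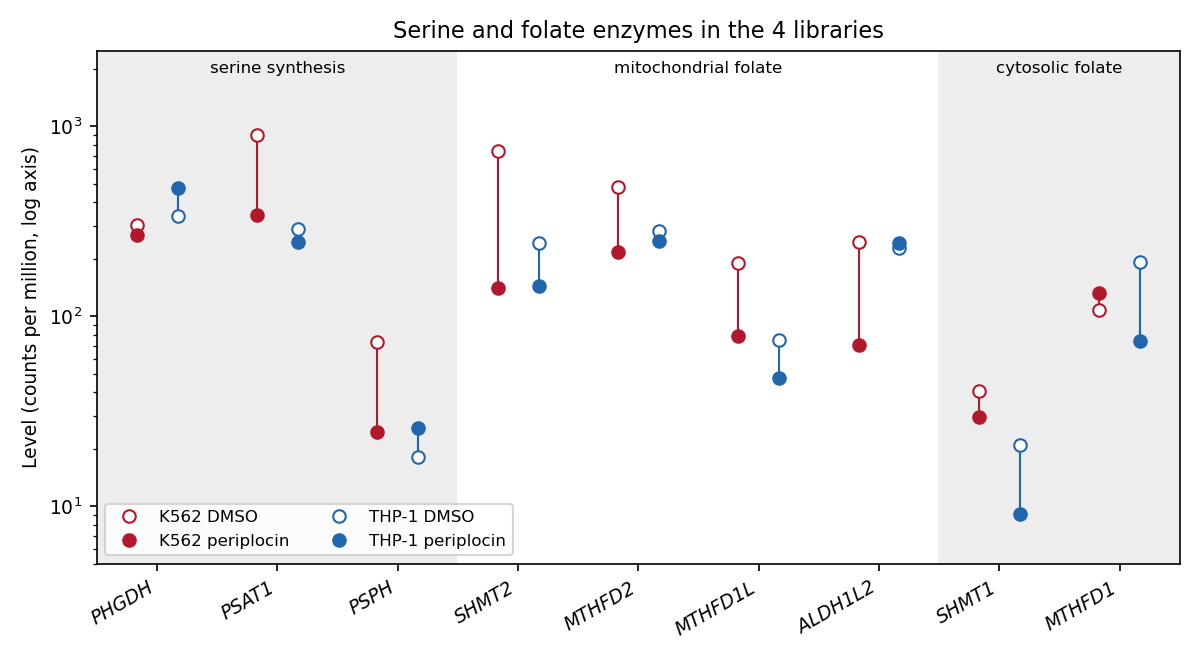
Level of each enzyme in CPM (vertical log axis) in the 4 libraries, open circles for DMSO and filled circles for periplocin, K562 in red and THP-1 in blue, with a line joining the pair of a line. SHMT2 spans the widest step, from 745 to 142 CPM in K562, while PHGDH stays between 269.5 and 476 CPM in all 4 libraries.

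All 4 mitochondrial folate enzymes fell at least 2-fold in K562, and none did in THP-1. SHMT2 (ENSG00000182199, chromosome 12, 57229327 to 57234935, plus strand), the entry step, fell in K562 from 12203 to 2348 counts, or from 745 to 142 CPM, which is 5.29-fold. Its log2 fold change of -2.40 ± 0.03 lay at percentile 1.54 of all genes tested in K562. In THP-1 SHMT2 went from 4994 to 2566 counts, or from 242 to 145 CPM, a log2 fold change of -0.73 ± 0.04 that was under 2-fold. With periplocin the lines were therefore at nearly the same SHMT2 level, 142 and 145 CPM.

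MTHFD2 (ENSG00000065911, chromosome 2, 74198562 to 74217565, plus strand) fell in K562 from 7900 to 3596 counts, or from 482 to 217 CPM, a log2 fold change of -1.16 ± 0.03. In THP-1 the counts were 5834 with DMSO and 4421 with periplocin, or 283 and 249 CPM, a log2 fold change of -0.17 ± 0.03. Of the annotated exon bases of MTHFD2, 27.2% are shared with SLC4A5 on the other strand, and strand was not marked by the library kit. SLC4A5 itself had between 19 and 104 counts.

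MTHFD1L (ENSG00000120254, chromosome 6, 150865549 to 151101887, plus strand), which releases formate from mitochondria, fell in K562 from 3123 to 1302 counts, or from 191 to 78.6 CPM, a log2 fold change of -1.29 ± 0.05. Its THP-1 counts were 1543 with DMSO and 840 with periplocin, or 74.8 and 47.4 CPM, a log2 fold change of -0.65 ± 0.06. MTHFD1L and SHMT2 were the mitochondrial enzymes with the lower values in THP-1, at 1.57-fold and 1.66-fold below DMSO.

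ALDH1L2 (ENSG00000136010, chromosome 12, 105019784 to 105084577, minus strand), the oxidising branch of the pathway, fell in K562 from 4058 to 1176 counts, or from 248 to 71.0 CPM, which is 3.51-fold and a log2 fold change of -1.81 ± 0.05. In THP-1 it had 4743 and 4329 counts, or 230 and 244 CPM, a log2 fold change of 0.10 ± 0.03. Of the 4 libraries K562 with periplocin alone was low, and the other 3 lay between 230 and 248 CPM. Summed over the 4 mitochondrial genes the level went from 1666 to 509 CPM in K562, and in THP-1 from 830 to 686 CPM.

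The cytosolic enzymes fell at least 2-fold in THP-1 and not in K562. MTHFD1 (ENSG00000100714, chromosome 14, 64388031 to 64463457, plus strand), a single protein with 3 enzymatic activities, fell in THP-1 from 3962 to 1308 counts, or from 192 to 73.8 CPM, which is 2.58-fold and a log2 fold change of -1.37 ± 0.05. In K562 it had 1774 counts with DMSO and 2190 with periplocin, or 108 and 132 CPM, a log2 fold change of 0.28 ± 0.05. Both K562 libraries lay between the THP-1 libraries.

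SHMT1 (ENSG00000176974, chromosome 17, 18327860 to 18363563, minus strand) was the enzyme with the lowest count in THP-1 with periplocin. It fell there from 433 to 162 counts, or from 20.996 to 9.14 CPM, a log2 fold change of -1.19 ± 0.13 whose counting interval, -1.45 to -0.93, included the 2-fold limit. In K562 it went from 667 to 492 counts, or from 40.7 to 29.7 CPM, a log2 fold change of -0.47 ± 0.09. Summed over both genes the cytosolic level went from 149 to 162 CPM in K562, and in THP-1 from 213 to 83.0 CPM. Of the annotated exon bases of SHMT1, 2.69% are shared with SMCR8 on the other strand. SMCR8 itself had between 1303 and 2357 counts, more than SHMT1 in each library.

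A ratio of counts of 2 genes in the same library does not depend on how libraries are scaled against each other, and such ratios were taken after the values of the enzymes had been seen. SHMT2 had 18.3 counts for each SHMT1 count in K562 DMSO and 4.77 with periplocin, a log2 change of -1.94 (95% counting interval -2.12 to -1.76). In THP-1 the same ratio went the other way, from 11.5 to 15.8, a log2 change of 0.46 (0.19 to 0.72). By counts alone, mitochondrial SHMT2 thus lost ground to its cytosolic paralogue in K562 and gained in THP-1. The THP-1 ratio with periplocin rests on 162 SHMT1 counts, and the ratios were not recomputed with an assumed dispersion.

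The ratios to MTHFD1 had the same opposite directions. MTHFD2 to MTHFD1 went from 4.45 to 1.64 in K562, and in THP-1 from 1.47 to 3.38. MTHFD1L to MTHFD1 went from 1.76 to 0.595 in K562, and in THP-1 from 0.389 to 0.642. ALDH1L2 to MTHFD1 went from 2.29 to 0.537 in K562, and in THP-1 from 1.20 to 3.31. These last 3 ratios share MTHFD1 and so are not independent of one another. Within serine synthesis, PSAT1 to PHGDH was lower with periplocin in both lines, from 2.99 to 1.27 in K562, and in THP-1 from 0.859 to 0.519. PSPH to PHGDH went from 0.241 to 0.0914 in K562, and in THP-1 from 0.0545 to 0.0543, where the log2 change had an interval of -0.21 to 0.20.

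**Figure D3:**
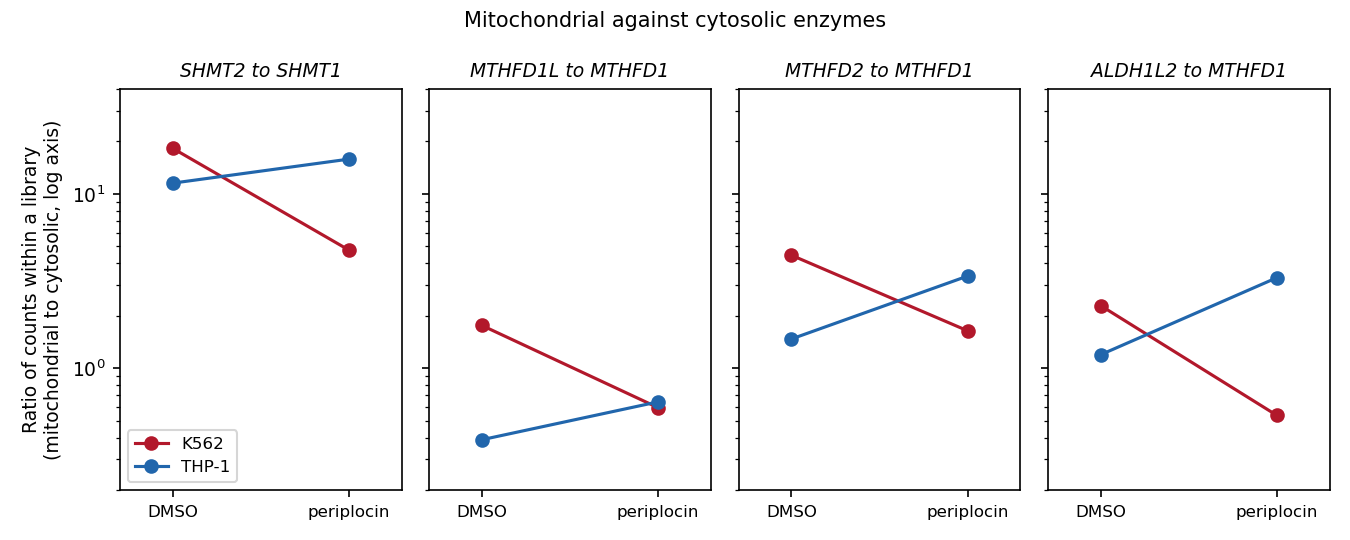
Ratio of counts of a mitochondrial to a cytosolic enzyme within a library (vertical log axis) with DMSO and with periplocin (horizontal axis), K562 in red and THP-1 in blue, 1 panel per pair. In all 4 panels the K562 line falls and the THP-1 line rises, for SHMT2 to SHMT1 from 18.3 to 4.77 and from 11.5 to 15.8.

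The responses of the lines were then set against each other gene by gene. The log2 fold change was lower in K562 than in THP-1 for 7 of the 9 enzymes and higher for SHMT1 and MTHFD1, and each of the 9 differences had a counting interval that excluded 0. The difference, K562 minus THP-1, was -2.09 (-2.34 to -1.83) for PSPH, -1.91 (-2.02 to -1.80) for ALDH1L2, -1.67 (-1.77 to -1.58) for SHMT2 and 1.65 (1.52 to 1.77) for MTHFD1. None of these differences could be tested against replicates. For 4 enzymes, PHGDH, PSPH, MTHFD1 and ALDH1L2, the signs were opposite in the lines, beside 38.3% of the 10779 genes tested in both. No enzyme fell at least 2-fold in both lines, 6 did so only in K562 and 2 only in THP-1, where over all 10779 genes the counts were 290, 807 and 670.

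**Figure D4:**
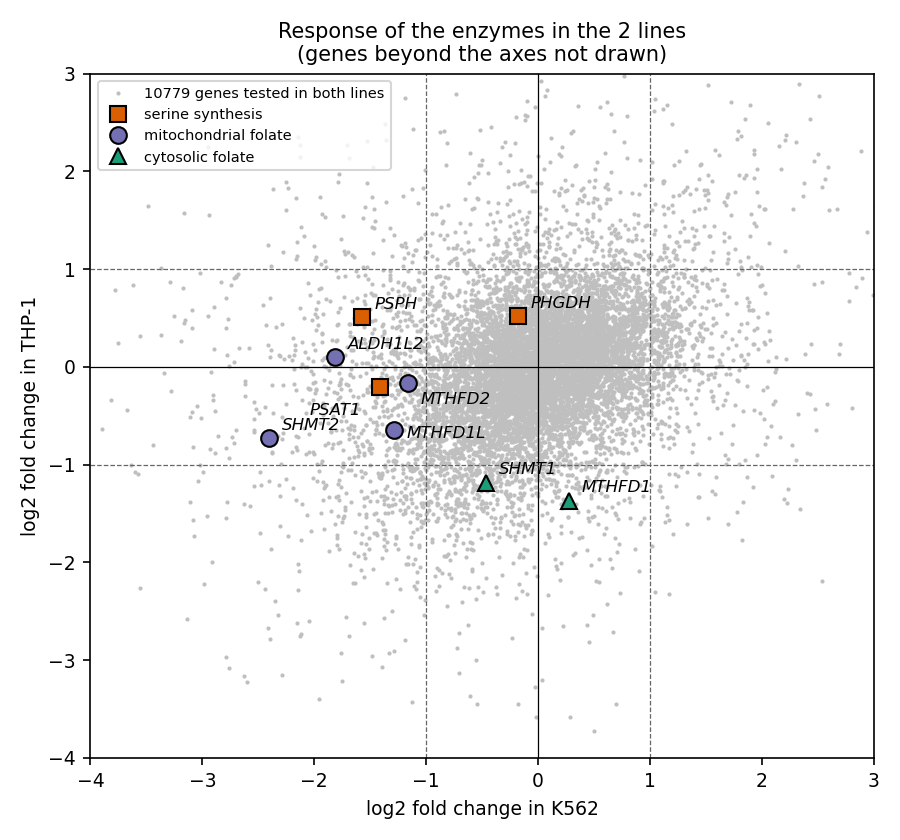
Log2 fold change in K562 (horizontal axis) against that in THP-1 (vertical axis) for the 9 enzymes and, in grey, the 10779 genes tested in both lines, with dashed lines at 2-fold. The serine synthesis and mitochondrial enzymes other than PHGDH lie left of -1 and above -1, and SHMT1 and MTHFD1 lie below -1 and right of -1.

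A fit over all 4 libraries, with line and treatment as terms, has an error that measures how far the lines differ in response, with 1 residual degree of freedom. In edgeR's quasi-likelihood test no gene passed an adjusted p of 0.05 (0% of 13584 genes), 1535 genes had an unadjusted p under 0.05, and DESeq2 called 125 of 11740 genes (1.06%). Of the 9 enzymes, 8 had a shared (fitted) log2 fold change below 0 and none was called by either tool. For PSPH, MTHFD1 and ALDH1L2 among them the lines had opposite signs, so the fitted value is an average and not a common fall. The share of all fitted genes below 0 was not computed. SHMT2 came nearest, with a shared log2 fold change of -1.56, an unadjusted p of 0.0125 and an adjusted p of 0.376 in edgeR, and an adjusted p of 0.101 in DESeq2. It was lower in both lines. MTHFD1L, also lower in both, had -0.96 and an edgeR adjusted p of 0.376, or 0.293 in DESeq2. The edgeR adjusted p of the other enzymes reached 0.847, for PHGDH.

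The lines also differed before treatment. With DMSO, THP-1 was below K562 by a log2 difference of -1.87 for PSPH, -1.53 for PSAT1, -1.50 for SHMT2 and -1.23 for MTHFD1L, after scaling over the 4 libraries. It was above K562 by 0.95 for MTHFD1 and 0.27 for PHGDH, and ALDH1L2 was at 0.01 with a counting interval of -0.05 to 0.07. With periplocin the difference was nearer 0 than with DMSO for 6 of the 9 enzymes: it was 0.21 for PSPH, -0.34 for PSAT1, 0.17 for SHMT2, -0.59 for MTHFD1L, 0.34 for MTHFD2 and -0.70 for MTHFD1. It was farther from 0 for the other 3, at 0.96 for PHGDH, -1.56 for SHMT1 and 1.92 for ALDH1L2. The share of all genes that came nearer to 0 was not computed. Each DMSO library enters both this difference and the fold change of its line, so the 2 are not independent. For MTHFD1, MTHFD2, PSPH and SHMT2 the line with the higher level changed between DMSO and periplocin. For PSPH and SHMT2 the lines were nearly level with periplocin, with counting intervals of 0.01 to 0.40 and 0.09 to 0.25.

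Between genes, levels were compared as CPM per kb of the main coding transcript. In K562 DMSO the order ran from PSAT1 at 413 and SHMT2 at 294 through PHGDH at 117, MTHFD2 at 108 and MTHFD1L at 52.9 to SHMT1 at 16.5. MTHFD1, PSPH and ALDH1L2, between 32.8 and 34.5, were not separated beyond counting error. In K562 with periplocin PSAT1 still led at 157, PHGDH followed at 104, and SHMT2 was at 55.9. ALDH1L2 was now lowest at 9.41, and SHMT1 and PSPH, at 12.1 and 11.3, were not separated. In THP-1 DMSO PSAT1 and PHGDH, at 132 and 130, were not separated, nor were MTHFD2 and MTHFD1, at 63.5 and 61.3, nor SHMT1 and PSPH at the low end. In THP-1 with periplocin PHGDH led at 184 with PSAT1 at 113, SHMT2 and MTHFD2 at 57.1 and 56.0 were not separated, nor were MTHFD1L and PSPH at 13.2 and 11.9, and SHMT1 was lowest at 3.71. Per kb, MTHFD1 thus stood above ALDH1L2 in THP-1 DMSO and below it with periplocin. In K562 MTHFD1 stood below MTHFD1L with DMSO and above it with periplocin. The order between genes depends on the transcript length used. In CPM, ALDH1L2 lay above MTHFD1 in THP-1 DMSO already, at 230 and 192.

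The remaining genes of folate and serine metabolism were taken from lists written with earlier results of these data known. Of the paralogues outside the 9, MTHFD2L, a second mitochondrial oxidising enzyme, had 100 and 164 counts in K562 and rose in THP-1 from 47 to 89, a log2 fold change of 1.14 ± 0.26. ALDH1L1, the cytosolic counterpart of ALDH1L2, had 0 counts in all 4 libraries, where a count of 0 allows up to 0.183 CPM. In the cleavage of glycine, the other mitochondrial source of one-carbon units, 1 of 3 genes tested fell in K562 and 2 of 4 fell and 1 rose in THP-1. GCSH, the carrier protein of that complex, fell in K562 from 1360 to 684 counts. It also fell in THP-1, from 411 to 60. GLDC, its decarboxylase, fell in THP-1 from 60 to 10 counts and had 0 counts in K562, and AMT, its aminomethyltransferase, rose in THP-1 from 30 to 53, a log2 fold change of 1.04 ± 0.33 that lay near the 2-fold limit.

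Among steps that take up, store or use folate-bound units, 4 genes fell in THP-1 and none in K562. Of all genes tested, 10.4% fell in THP-1 and 11.5% in K562. The lists are short, so none in K562 is not far from that share. Of the folate uptake and storage genes, none of 6 tested fell and FOLR1, a folate receptor, rose in K562, from 47 to 144 counts, while in THP-1 2 of 5 fell. These were SLC19A1, the reduced folate carrier, from 864 to 339 counts, and FPGS, which traps folate in the cell, from 1053 to 390. Of the 6 genes that consume one-carbon units none passed 2-fold in K562 and 2 fell in THP-1, ATIC of purine synthesis from 2093 to 740 counts and MTR, methionine synthase, from 2251 to 786. The median of these consumers was -0.18 in K562 and -0.74 in THP-1. TYMS, thymidylate synthase, had log2 fold changes of -0.09 in K562 and -0.74 in THP-1, and GART of purine synthesis -0.27 and -0.75. Of the folate reducing and related enzymes none passed 2-fold in either line, among 5 tested in K562 and 4 in THP-1.

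Among genes of ATF4 and its known targets outside the 9, 8 of 16 fell and none rose in K562, with a median log2 fold change of -1.07, and in THP-1 3 fell and 1 rose, with a median of 0.25. The 8 were TRIB3, SESN2, DDIT4, PCK2, CHAC1, CEBPB, ATF5 and CEBPG. TRIB3, a pseudokinase of the stress response, fell in K562 from 6499 to 1465 counts and had 1384 and 1373 in THP-1. SESN2, a leucine sensor, fell in K562 from 6525 to 1556 and had 621 and 748 in THP-1. PCK2, the mitochondrial form of PEP carboxykinase, fell in both lines, with -2.01 and -1.14. PYCR1 and GPT2, of proline and alanine metabolism, also fell in THP-1, and SLC7A11, the cystine carrier, rose there from 494 to 1147 counts. The ATF4 transcript itself had log2 fold changes of 0.24 in K562 and -0.07 in THP-1, and ASNS, asparagine synthetase and a classic target, 0.24 and 0.06. These transcripts do not measure ATF4 protein.

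The MYC transcript fell in THP-1 from 5889 to 1024 counts, or by 2.29 ± 0.05 on the log2 scale, and had 5322 and 2889 counts in K562, a difference of -0.91 ± 0.03 that was under 2-fold. Of its partners and antagonists, MXD4 rose in K562 from 357 to 975 counts and MXD1 in THP-1 from 423 to 726. Of the 14 S phase genes, RRM2, a ribonucleotide reductase subunit, fell in both lines, with -1.55 and -1.92, and CCNE2, a cyclin, fell in K562. The median of that list was 0.08 in K562 and -0.55 in THP-1, where all 14 were below 0. Whether cell cycle position had a part in the values of the enzymes was not tested.

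**Figure D5:**
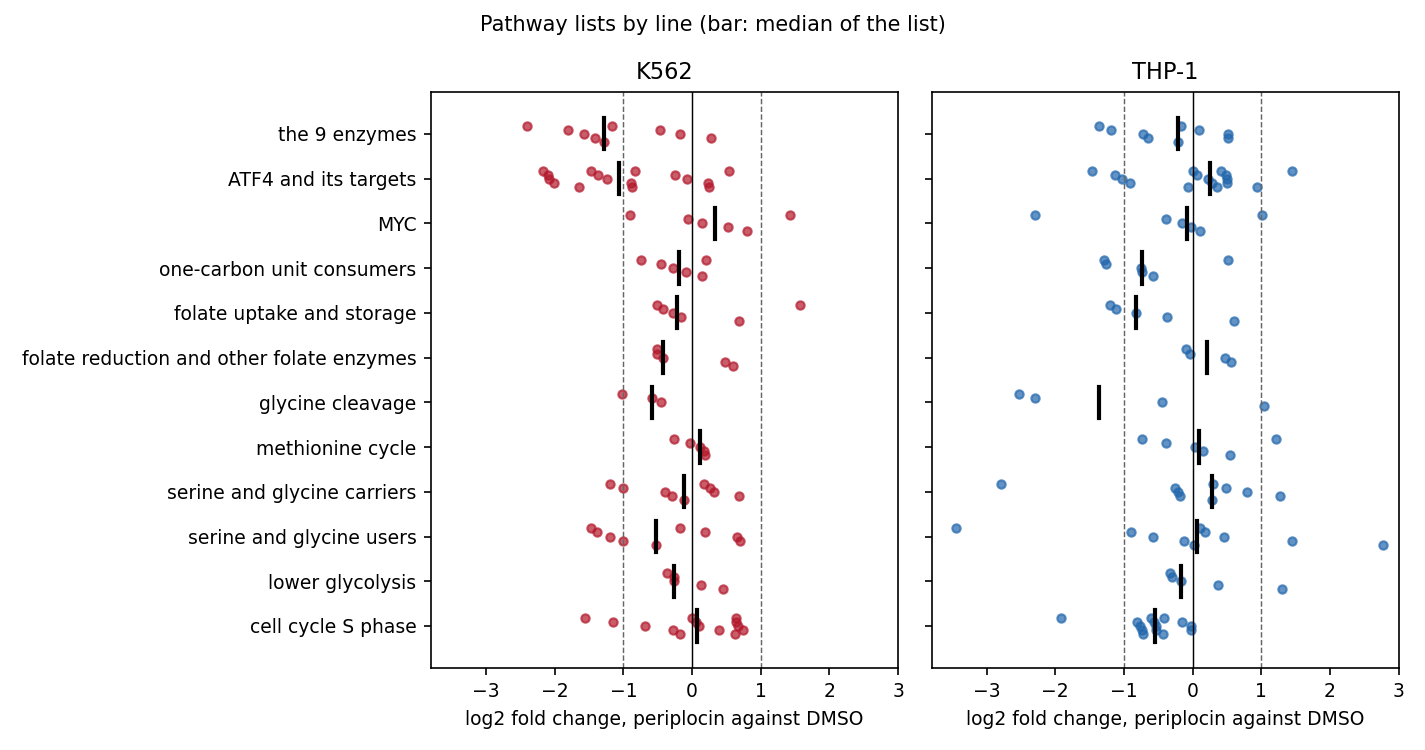
Log2 fold change of periplocin against DMSO (horizontal axis) of each gene tested in 12 lists (rows), K562 left and THP-1 right, with a black bar at the list's median and dashed lines at 2-fold. In K562 the 9 enzymes and the ATF4 list have medians of -1.29 and -1.07, and in THP-1 the glycine cleavage, folate uptake and one-carbon consumer lists have medians of -1.37, -0.82 and -0.74.

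In K562 the erythroid markers were higher with periplocin, while 6 of the 9 enzymes fell. Of the 8, 7 rose at least 2-fold, and GATA1 had a log2 fold change of 0.84. Their summed level went from 2032 to 8718 CPM in K562, and was 10.7 and 8.13 CPM in THP-1. The summed monocytic markers were at 1149 and 1279 CPM in THP-1, where 3 rose and 1 fell, and at 109 and 122 CPM in K562, with 1 of 5 tested risen and 1 fallen. The part of these shifts, and of the lower mitochondrial transcript share in K562, in the fall of the enzymes was not tested. In libraries of whole cultures, fewer cells with an enzyme and less of its RNA per cell cannot be told apart.

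The genes whose pair of log2 fold changes lay nearest to the medians of the 9 enzymes (-1.29 in K562, -0.21 in THP-1), among the 8039 genes whose mean reached 10 CPM in both lines, were CNN2, UGDH, PRKACB, EDEM1 and MT-ND1, at distances of 0.0305 to 0.0702 in log2 units over these 2 comparisons. CNN2, an actin-binding calponin, had -1.28 and -0.18, and UGDH, which makes UDP-glucuronate, had -1.26 and -0.24.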

How the data were processed

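RNA-seq was analysed for 4 libraries of K562 and THP-1 cells, 1 per condition. The authors enriched poly-A RNA, made paired-end libraries with a kit that does not mark strand, and deposited a table of expected counts, not normalized, with 1 column per library. Whole numbers make up 87.4% to 88.3% of its values. The submitters' processing notes name HISAT2, StringTie 1.3.1 and hg38 with no role. The counting program and annotation are not given in the sources used here, and the sources differ on the sequencing platform. Of 20348 identifiers, 20310 had a symbol and 20118 were found in GENCODE release 29 (GRCh38), the source of positions and lengths. The 14 annotated pseudogenes of the 9 genes, 7 of them of MTHFD2, are not rows of the table, so how reads shared with them were counted is unknown.

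Expected counts were rounded to whole numbers. Each pair was scaled by TMM (edgeR 4.0.16, R 4.3.3), and log2 fold changes with a prior count of 0.5 and standard errors from counts were computed for genes whose mean reached 1 CPM. Fell and rose mean at least 2-fold. Counting intervals are 95% and cover counting error only, the least error these values can have. CPM is the count over the library total, without TMM. All 4 libraries were fitted with line and treatment by edgeR's quasi-likelihood test, where at least 2 libraries had 10 counts or more, with Benjamini-Hochberg adjustment at 0.05. DESeq2 1.42.0 was the alternative, and 1844 genes without an adjusted p stayed out of its calls. Summaries and figures used Python 3.11.15 (matplotlib 3.10.9, numpy 2.4.6, pandas 2.3.3). The fits were tested on simulated data. The 9 genes and all lists were chosen with earlier results of these data known.

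Named in the text are all 9 enzymes, up to 4 genes per other list with a mean of at least 5 CPM and the largest change, ATF4, MYC, TYMS, MTHFD2L and ALDH1L1, and the 5 genes nearest to the medians, apart from 1 gene not reported here. GLDC, AMT, ASNS, CHAC1, CEBPB, CEBPG, ATF5, PYCR1, GPT2, SLC7A11, GATA1, EPOR, CSF1R, LYZ, SFXN1, CBS, CTH, SDS and GNMT, and the overlapping SLC4A5 and SMCR8, were chosen after their values were seen, as were the ratios within a library and the CCAAT search. Alternatives were other scalings, a prior count of 2, other filters and folds, and assumed dispersions. Other assays of the study were not analysed here.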

Additional observations from a re-analysis of the deposited data

Results flagged for a closer look

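For 4 enzymes the log2 fold change had opposite signs in the lines, with each line's counting interval excluding 0. By sign alone that is 44.4% of the 9 enzymes, near the 38.3% of all genes tested in both lines. The share of all genes that also meets the interval condition was not computed. The difference, K562 minus THP-1, was -0.69 for PHGDH (-0.18 and 0.51), -2.09 for PSPH (-1.58 and 0.51), 1.65 for MTHFD1 (0.28 and -1.37) and -1.91 for ALDH1L2 (-1.81 and 0.10). With 1 library per condition the difference was not tested against replicates. The smallest of these values, that of ALDH1L2 in THP-1, was between 0.07 and 0.11 under the scalings and the prior count tried. At an assumed dispersion of 0.01 the intervals of ALDH1L2 in THP-1 (-0.31 to 0.50), PHGDH in K562 (-0.58 to 0.23) and MTHFD1 in K562 (-0.13 to 0.69) included 0. At 0.04 that of PSPH in THP-1 (-0.31 to 1.33) did too, so that for none of the 4 did both lines' intervals exclude 0.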

How the results depend on the processing

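All 72 values of single enzymes recomputed under DESeq2 size factors, total counts, total counts without mitochondrially encoded genes and a prior count of 2 kept their direction and their side of 2-fold, as did the direction of the 12 ratios under the prior count, and these scalings put the median of all genes no farther from 0 than -0.06. Counts moved with the fold required. At 1.5-fold, 4 enzymes were lower in THP-1 (all 4 with an interval that excludes 0), and the shares of all genes lower and higher were 22.0% and 18.97% in K562, against 21.1% and 17.2% for THP-1. At 4-fold, 1 enzyme was lower in K562, SHMT2 (1 with an interval that excludes 0), and 0 in THP-1 (0), with 2.69% of all genes lower and 1.94% higher in K562, against 1.82% and 2.16% for THP-1. With no filter 16.6% of genes were higher in K562 and 13.7% in THP-1, and at 10 CPM 7.43% were lower in K562, and 6.55% lower and 5.32% higher in THP-1. With spread between replicates assumed, the number of enzymes whose interval excludes 0 went in THP-1 from 9 to 6 at a dispersion of 0.01, 2 at 0.04 (SHMT1 and MTHFD1) and 0 at 0.16 (0 of those called). In K562 it went from 9 to 7 at 0.01, 6 at 0.04 and 2 at 0.16 (SHMT2 and ALDH1L2, 2 of those called). Over both lines DESeq2 called 125 genes, and edgeR without a filter called 1. Each of these changes followed a change of the fold, the filter, the assumed dispersion or the tool, and its cause was not tested. The fit over both lines pairs the libraries by line. No further paired analysis by replicate was possible because each condition has 1 library. Leaving out a library ends the comparison in its line, leaves the values of the other line as they are, and leaves the fit over both lines no residual degree of freedom. The depth limits SHMT1 most, with 162 counts in THP-1 with periplocin. The other listed genes were not recomputed, and SLC1A4, CTH, GCSH in K562, and AMT, GPT2 and MXD1 in THP-1, lay close to the 2-fold limit.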

Other observations

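Of 9 serine and glycine carriers tested, 2 fell in K562, and in THP-1 1 fell and 1 rose, beside the shares of all genes given above. SLC1A4, a plasma membrane carrier of neutral amino acids, and SFXN2, a sideroflexin of mitochondria, fell in K562, from 2524 to 1284 (on the 2-fold limit) and from 99 to 44 counts. In THP-1 SFXN2 fell from 240 to 29 counts, and SLC38A2, an amino acid carrier induced by amino acid shortage, rose from 11893 to 24400. SFXN1, the mitochondrial serine carrier, had log2 fold changes of 0.18 in K562 and -0.19 in THP-1.

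Of the listed enzymes that use serine or glycine or lie next to them in metabolism, 4 of 9 tested fell in K562. These were CBS and CTH of the transsulfuration route, with -1.20 and -1.01, and SDSL and SRR, with -1.47 and -1.39. In THP-1 1 of 10 fell and 2 rose. GCAT, which yields glycine in threonine breakdown, fell there from 211 to 16 counts and had 644 and 1065 in K562. PTDSS2, which makes phosphatidylserine, rose in THP-1 from 234 to 544, and SDS, a serine dehydratase, rose from 7 to 43. Of 5 lower glycolysis genes none passed 2-fold in K562 and 1 rose in THP-1, PKM, whose M2 product binds serine, from 12743 to 26846 counts. In the methionine cycle none of 5 tested passed 2-fold in K562, and in THP-1 1 of 6 rose, GNMT, from 22 to 44 counts, while AHCY had -0.73.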
